A study of Rattus norvegicus with 54 samples.

Results

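The miRNAs of urine were compared with those of plasma in rats that received only a vehicle. The comparison used every vehicle library of these fluids, 9 from urine and 9 from plasma, out of 54 libraries in the series, and each library was matched to its column of the count table by the identifier in its label. The study as a whole used miR-seq, which sequences short RNAs and counts the reads that fall on each mature miRNA, to follow kidney and liver injury after cisplatin, acetaminophen or carbon tetrachloride in rats. No treated animal entered the comparisons below. The donors were male Sprague-Dawley rats that the labels give as 9 weeks old, and each fluid had 3 libraries per vehicle. One vehicle was sterile saline (0.9%), given into a vein and sampled on day 4. The other two were 0.5% methylcellulose and corn oil, both given by mouth and sampled on day 2. Vehicle, route and day therefore changed together. Urine was collected on ice from animals that had been fasted overnight in metabolic cages and was spun to remove debris, and plasma was prepared with EDTA. The labels do not say which urine and plasma libraries came from the same rat. By the study's methods, the libraries of one fluid and vehicle came from separate animals.

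A miRNA is cut from a hairpin precursor, and the names 5p and 3p say which arm of the hairpin a mature strand lay on. It finds its target messengers mainly through its seed, the bases near its 5′ end, so miRNAs with one seed form a family. In plasma, cell-free miRNAs come largely from blood cells, platelets, endothelium and liver and travel in vesicles or bound to protein. Urine is known to carry RNA shed by the epithelium of the kidney tubule and the lower urinary tract, while the glomerular filter holds back most large plasma particles.

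The sequences of 12 miRNAs on which the comparison turned are shown first, as given by RefSeq for the GRCr8 assembly, with bases 2 to 8 (the seed) in capitals. The first 6 were higher in urine, the last 6 were lower.
miR-192-5p: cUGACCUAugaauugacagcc
miR-10a-5p: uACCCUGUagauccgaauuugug
miR-10b-5p: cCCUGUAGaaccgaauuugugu
miR-3473: uCUAGGGCuggagagauggcua
miR-182: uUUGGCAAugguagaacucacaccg
miR-30a-5p: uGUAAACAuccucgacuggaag
miR-191a-5p: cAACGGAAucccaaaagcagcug
miR-92a-3p: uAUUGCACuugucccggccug
miR-142-5p: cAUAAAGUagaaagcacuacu
miR-143-3p: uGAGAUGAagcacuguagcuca
miR-140-3p: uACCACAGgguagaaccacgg
let-7i-5p: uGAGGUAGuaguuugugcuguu
The 12 hold 12 different seeds. Those of miR-10a-5p and miR-10b-5p differ because RefSeq starts miR-10b-5p at a later base, and reads of these near-identical miRNAs may not have been told apart, since 2 mismatches were allowed in the alignment. miR-192-5p lies at chr1:212994232-212994252 on the plus strand, close to miR-194-5p at chr1:212994038-212994059. miR-10b-5p lies within the span of Hoxd4, a homeobox gene, at chr3:80035886-80035907. miR-191a-5p lies within the span of Dalrd3 at chr8:118142641-118142663 and miR-142-5p within that of Tspoap1 at chr10:73055119-73055139, both on the plus strand. miR-143-3p lies on the minus strand within the lncRNA Carmn at chr18:57371373-57371394, and miR-3473 on the plus strand within the span of Zranb3 at chr13:42051730-42051751. The table used gives gene spans and not exons, so exon or intron was not resolved.

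Urine libraries were shallow. They held 410 to 2725 counted reads (median 950.0), against 21627 to 695631 in plasma (median 279351), and the 9 urine libraries summed to 10455 reads. The table lists 832 rows, of which 79 are further genomic copies of a mature miRNA, and a read that fits more than 1 copy can be counted at each. A read was seen on 200 rows in urine and on 519 in plasma, and 185 were seen in both. Only 32 rows had a read in every urine library, against 189 in every plasma library. The column headers carry the codes L6 and L7 for the urine libraries and L8 and L1 for the plasma libraries. The headers do not say what these codes mean. If they are sequencing lanes, lane and fluid cannot be told apart. One urine library stood apart. The third methylcellulose library had 45.9% of its reads on miR-192-5p. Its scaling factor by TMM, edgeR's correction for a few very abundant RNAs, was 0.515, while those of the other 17 libraries ran between 0.847 and 1.29. Urine libraries of 1 vehicle agreed within sampling noise by a chi-square test in 2 of 9 pairs, and libraries of different vehicles did so in 3 of 27 pairs. Since such agreement also occurred between vehicles, all 9 were kept as separate samples.

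Which miRNAs filled the urine libraries was the first question. The 5 rows with the most reads in summed urine were miR-192-5p, miR-10b-5p, miR-10a-5p, miR-22-3p and miR-3473. Together they held 50.7% of the summed urine reads, and 43.1% to 65.0% of the reads of a library. The same 5 held 9.82% of plasma reads on average, and 6.92% to 15.9% of a library. Of the 20 rows with the most urine reads, 12 were also among the 20 most abundant in plasma. In plasma, miR-191a-5p led every one of the 9 libraries.

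miR-192-5p, an epithelial miRNA abundant in kidney, liver and gut, had 1255 of the 10455 urine reads, a share of 12.0% (95% Clopper-Pearson interval 11.4% to 12.6%). Of these reads 805 came from the third methylcellulose library, so the first rank and the pooled share rest on that library. The median urine library had 4.23%. miR-10b-5p and miR-10a-5p, which are encoded in the HOX gene clusters, followed with 1190 reads (11.4%, 10.8% to 12.0%) and 1025 reads (9.80%, 9.24% to 10.4%). miR-22-3p, a broadly expressed miRNA, had 995 reads (9.52%, 8.96% to 10.1%) and miR-3473 had 838 (8.02%, 7.50% to 8.55%). These intervals cover counting error only, since the reads carry no molecular identifiers. The next named miRNAs were miR-30a-5p with 589 reads, let-7f-5p with 390, miR-26a-5p with 341, miR-182 with 207, miR-21-5p with 202, miR-181a-5p with 199, miR-27b-3p with 184 and miR-320-5p with 158. Further copies of let-7f-5p, let-7c-5p, let-7a-5p and miR-181a-5p had counts close to those of the rows given here. How far the reads were concentrated on few miRNAs was measured next.

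In 400 reads, a number every library could supply, 58.9 ± 6.22 miRNAs were expected in a urine library, against 66.7 ± 3.98 in a plasma library (SD, n = 9 each). The difference of −7.85 gave p = 0.00975 in an exact 2-sided permutation test within vehicles, for which 0.00025 is the smallest possible p. The urine libraries ran from 51.7 to 73.2 and the plasma libraries from 57.9 to 70.5, so the groups overlapped. The highest value of all 18 was that of the second corn oil urine library. The 10 most abundant miRNAs of a library held 69.1% ± 4.46 of urine reads, against 60.9% ± 3.20 of plasma reads (n = 9 each, exact permutation p = 0.001). When plasma was thinned at random to the urine depth the plasma share was 61.3% ± 3.79 and the exact permutation p was 0.002.

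**Figure D1:**
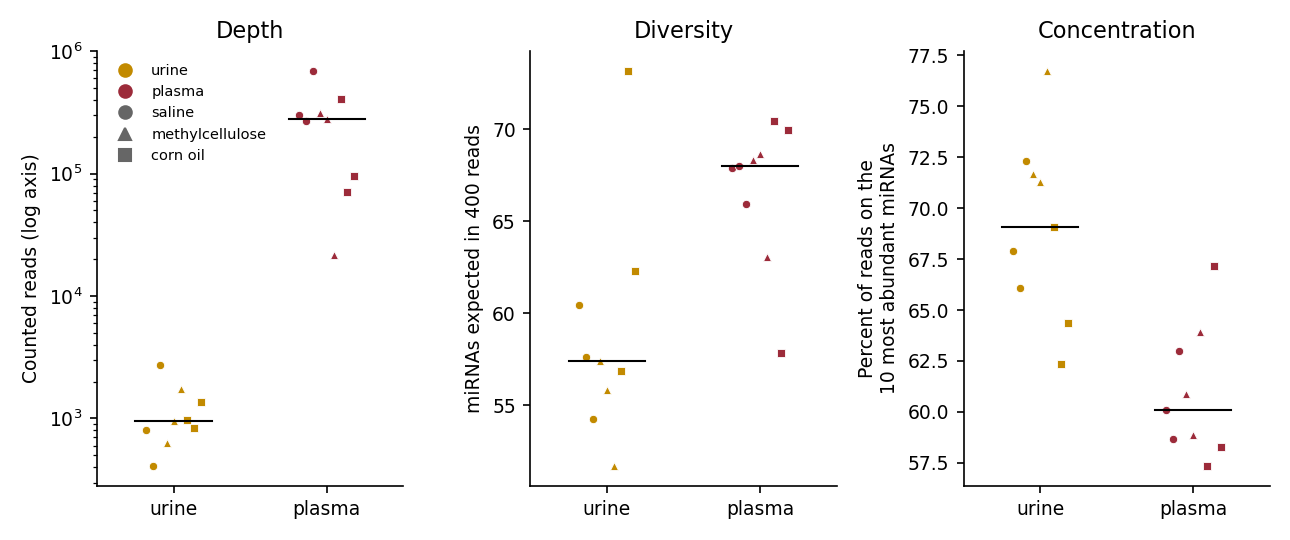
Each point is 1 library, with urine on the left and plasma on the right of each panel, the vehicle shown by the marker and the median by a line. The panels show counted reads on a log axis, the number of miRNAs expected in 400 reads, and the percent of reads on the 10 most abundant miRNAs. Urine libraries were shallower throughout (at most 2725 reads, against at least 21627) and, with overlap, less diverse.

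Urine was then tested against plasma miRNA by miRNA. In urine, 6 of 8 tested miRNAs of a kidney epithelium list were higher, among them miR-30a-3p, which passed the filter on low counts through urine alone. Both tested miRNAs of the miR-200 and miR-183 groups were higher and both of a white blood cell list lower. Each of these had passed the filter on low counts through the fluid where it was abundant, so these last counts are descriptions. Of 73 rows with enough reads for the test, 43 differed at an adjusted p under 0.05 (58.9%), of which 15 were higher in urine (20.5%) and 28 lower (38.4%). With copies counted once these were 14 higher and 24 lower of 63 mature miRNAs. All 9 urine libraries lay above all 9 plasma libraries for 11 of the higher rows and below them for 14 of the lower rows, 34.2% of the rows tested. Differences reached 4-fold in 10 of the higher and 20 of the lower rows. A row could pass the filter on low counts through 1 fluid alone, so these counts describe the rows that passed and not all miRNAs. For such a row the filter itself favoured the direction of that fluid, so its call and p-value are descriptions. The median log2 ratio of urine over plasma over all 73 rows was −0.48, and every ratio below is on this log2 scale after TMM scaling with vehicle as a block.
The ratios are relative to the other miRNAs of a library, so less of one miRNA and more of the rest cannot be told apart, nor can fewer cells shedding into a fluid and less RNA from each.

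Among the higher miRNAs, miR-192-5p made up 3.17% to 45.9% of reads in urine (median 4.23%), against 0.313% to 1.76% in plasma (median 0.629%). The lowest urine library lay above the highest plasma library. The fitted log2 ratio was 3.76 ± 0.67 (SE, edgeR adjusted p = 3.27e-05), and without the third methylcellulose urine library it was 2.84.
miR-10a-5p took 3.87% to 13.3% of urine reads (median 9.60%), against 0.379% to 1.12% of plasma reads (median 0.742%). No urine library came as low as any plasma library, and the log2 ratio was 4.0 ± 0.28 (edgeR adjusted p = 4.60e-12). For miR-10b-5p the urine range was 5.36% to 16.4% (median 11.7%) and the plasma range 0.388% to 1.71% (median 0.761%), with a log2 ratio of 3.84 ± 0.33 (edgeR adjusted p = 2.95e-10).

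miR-30a-5p, the main member of its family in kidney tubules, ranged from 2.22% to 7.63% in urine (median 6.26%) and from 1.33% to 2.60% in plasma (median 1.47%). These percentages overlapped only through the third methylcellulose urine library, and the scaled levels did not overlap. Its log2 ratio was 2.0 ± 0.20 (edgeR adjusted p = 5.57e-09). The opposite arm, miR-30a-3p, was rarer, with 0.105% to 0.492% of urine reads and 0.0156% to 0.0479% of plasma reads. It rose by 3.09 ± 0.34 (edgeR adjusted p = 2.09e-08). miR-30a-3p passed the filter through urine alone, so this p-value is a description. miR-30d-5p, at 0.342% to 1.95% in urine and 0.955% to 1.76% in plasma, had a log2 ratio of 0.02 ± 0.21 (edgeR adjusted p = 0.936). miR-30e-5p had a log2 ratio of −0.23 ± 0.25 (edgeR adjusted p = 0.470). Of the 12 members of the kidney epithelium list, 12 had a read in urine and 12 in plasma, 8 could be tested, 6 rose, 0 fell and 2 did not pass. The 6 include miR-30a-3p, whose call is a description. The median log2 ratio of the 8 was 2.55, beside −0.48 over all rows. The list summed to 32.9% to 60.5% of reads in a urine library (median 36.0%), against 5.11% to 10.3% in a plasma library (median 6.39%).

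Markers of other epithelia were scarcer and differed more. miR-182, of the sensory and epithelial miR-183 cluster, made up 1.23% to 2.99% of urine reads (median 1.95%), against 0.0127% to 0.0592% of plasma reads (median 0.0223%). The groups were far apart, with a log2 ratio of 6.51 ± 0.36 (edgeR adjusted p = 8.18e-14). miR-200b-3p, a guardian of the epithelial state through repression of Zeb1 and Zeb2, was read 57 times in urine and present in 9 of 9 libraries. In plasma it was read 4 times, in 3 of 9 libraries, among 2456618 reads. Its fitted log2 ratio of 11.23 ± 0.58 (edgeR adjusted p = 1.79e-14) rests on those 4 plasma reads. miR-200b-3p passed the filter through urine alone, so this p-value is a description. Both tested members of the list that joins the miR-200 and miR-183 groups rose, and both had passed the filter through urine alone. The p-value of miR-182 is therefore a description too. With a wider filter, which keeps a miRNA that is well counted in any 1 vehicle group of a fluid, 109 rows could be tested, of which 25 were higher (22.9%) and 54 lower (49.5%), and the median log2 ratio was −0.94. A miRNA that passed only through the fluid where it was abundant had to differ, so counts under this filter are descriptions. Under it 6 members of that list were tested and 6 rose, among them miR-429 (31 urine reads, log2 ratio 6.47 ± 0.62), miR-141-3p (39 urine reads, 5.10 ± 0.56) and miR-200a-3p (18 urine reads, 4.59 ± 0.71). The list held 2.08% to 4.74% of a urine library, against 0.0272% to 0.117% of a plasma library.

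The wider filter also admitted miRNAs of stratified epithelium and urothelium. miR-203a-3p, a miRNA of differentiating squamous epithelium, had 47 reads in 8 of 9 urine libraries, with 0% to 1.71% of reads (median 0.411%), against 0.00179% to 0.0218% in plasma. Its log2 ratio was 5.87 ± 0.60. miR-205, also an epithelial miRNA, had 10 urine reads in 6 libraries and a log2 ratio of 2.88 ± 1.03. miR-194-5p, the neighbour of miR-192-5p, had 37 urine reads in 6 libraries, 26 of them in the third methylcellulose library. Its log2 ratio was 6.66 ± 0.78. The third methylcellulose library, high in miR-192-5p, also had the highest share of miR-194-5p at 1.48%. miR-375-3p, best known from pancreatic islets and gut endocrine cells, had 27 urine reads and a log2 ratio of 3.51 ± 0.57. The miRNAs named from the wider filter were chosen after their values were seen, and their ratios are descriptions with no test.

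**Figure D2:**
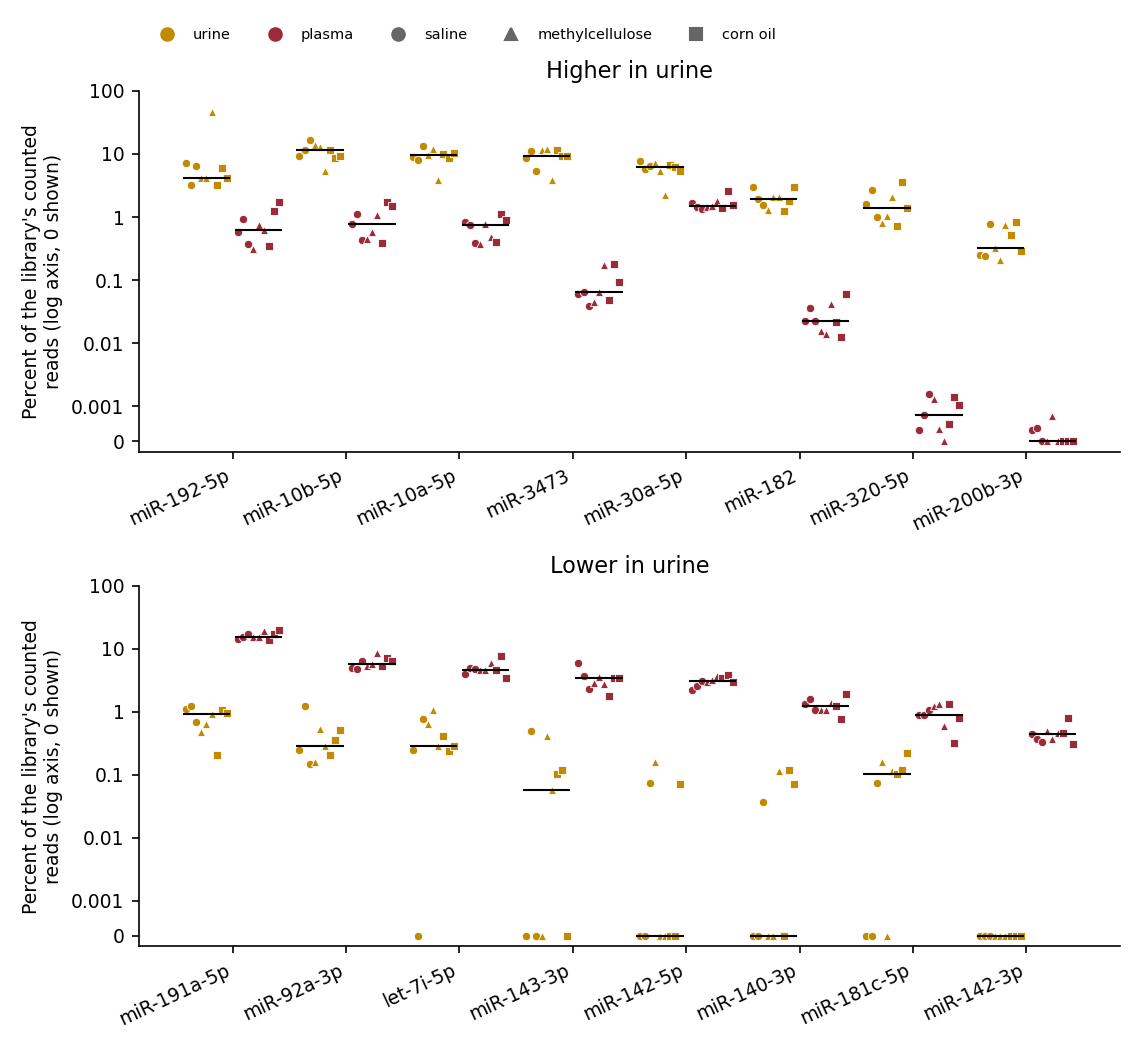
Percent of each library's counted reads on a log axis that also shows 0, for 8 miRNAs higher in urine (top) and 8 lower in urine (bottom), with urine left of plasma, 9 libraries each. Markers show the vehicle and lines the median. The third methylcellulose urine library reached 45.9% for miR-192-5p, and many urine libraries had no read of miR-142-5p, miR-140-3p or miR-143-3p.

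Some of the abundant urine miRNAs were scarce in kidney and liver. miR-3473, a rodent miRNA with a high number in the miRNA catalogue, was read 46 to 149 times in each urine library, 3.93% to 12.2% of reads (median 9.26%). In plasma it made up 0.0394% to 0.180% (median 0.0638%), so that the ranges were far apart, and the log2 ratio was 6.96 ± 0.34 (edgeR adjusted p = 8.82e-15). Most plasma libraries lay under the level the filter required, so miR-3473 passed through urine and this p-value is a description. Its mean level was 5.62 CPM (counts per 1e6 counted reads) in the kidneys of the saline rats and 12.6 CPM in the livers of vehicle rats, against 851 CPM in plasma. The 16-base run from base 6 to base 21 of the miRNA, GGCTGGAGAGATGGCT, was found on either strand in 92 of 33469 promoter windows of 300 bases in the RefSeq table, 0.275% of them. The same run of 82 miRNAs was searched, and 80 of them had no such window, while miR-125a-5p had 1. A match describes the letters only, and whether reads from such places were counted as miR-3473 was not tested. Of 113 miRNAs numbered above 3000, 8 had a urine read, and miR-3473 held 838 of their 847 reads.

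miR-320-5p was another. It was read 158 times in urine, in 9 of 9 libraries (0.719% to 3.61%, median 1.38%), and 23 times in plasma (0% to 0.00158%, median 0.000737%). The log2 ratio was 10.95 ± 0.50 (edgeR adjusted p = 3.92e-15). miR-320-5p passed the filter through urine alone, so this p-value is a description. The other arm of the precursor, miR-320-3p, had 18 reads in urine and 3564 in plasma, with a log2 ratio of 0.42 ± 0.43 (edgeR adjusted p = 0.446). The 5p arm thus held 89.8% of the precursor's reads in summed urine (95% Clopper-Pearson interval 84.3% to 93.8%), against 0.641% in summed plasma (0.407% to 0.961%). In single libraries it held 70.0% to 100% in urine and 0% to 1.23% in plasma, and the ranges did not overlap. In kidney the level of miR-320-5p was 0.286 CPM.

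The balance of the arms was then compared for every precursor that had at least 10 reads on each arm over the 18 libraries, with plasma thinned to the urine depth. For these 11 precursors the log2 ratio of 5p to 3p reads was tested, with p-values adjusted over the 11. miR-320 differed by 4.44 (exact permutation p = 0.00025, adjusted p = 0.00275). miR-151 differed by 2.61 (exact permutation adjusted p = 0.0055), but with 7 of 43 urine reads on the 5p arm the pooled share was 16.3% in urine (95% Clopper-Pearson interval 6.81% to 30.7%), against 7.69% in plasma, which lies inside that interval, and many urine ratios rest on the 0.5 reads added to each side. For miR-181c and miR-142 no direction can be given. In urine miR-181c had 10 reads and miR-142 had 4, none of them on the 3p arm, so that the pooled 5p share was 100% for both, against 88.2% and 87.9% in plasma, while the ratios with 0.5 reads added differed the opposite way, by −2.16 and −1.95. The other 7, among them miR-30a (0.18), miR-21 (−0.71), miR-148a (0.39) and miR-30e (−1.23), had adjusted p from 0.190 to 0.725. This comparison was added after the values were seen.

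Among the lower miRNAs, miR-191a-5p, which is abundant in blood, had the highest level in plasma. It made up 0.205% to 1.22% of urine reads (median 0.912%), against 13.9% to 19.6% of plasma reads (median 15.5%). Its log2 ratio was −4.12 ± 0.29 (edgeR adjusted p = 4.60e-12). miR-92a-3p, a member of the miR-17-92 cluster that is plentiful in blood cells, made up 0.147% to 1.22% of urine reads (median 0.285%), against 4.70% to 8.73% in plasma (median 5.80%). The log2 ratio was −3.90 ± 0.28 (edgeR adjusted p = 1.14e-11). Both ranges lay wholly apart.

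miR-142-5p, a miRNA specific to blood-forming cells, was read 4 times in urine, in 3 of 9 libraries, against 2.20% to 3.87% of reads in plasma (median 3.08%). The log2 ratio was −6.11 ± 0.39 (edgeR adjusted p = 1.12e-12), and −6.75 without the third saline urine library. Its other arm, miR-142-3p, had no urine read and 10061 plasma reads, a mean of 4488 ± 1437 CPM (SD, n = 9). Against the floor of 3 reads over the summed urine libraries, 287 CPM, it was at least 15.6-fold lower in urine. miR-223-3p, of neutrophils and monocytes, was at least 9.24-fold lower by the same floor. miR-150-5p, of lymphocytes, was at least 3.44-fold lower, and miR-146a-5p, an inflammatory regulator, at least 2.72-fold lower. Of the 8 members of the white blood cell list, 2 had a urine read and 8 a plasma read. Both of those tested fell, and with the wider filter 6 of 6 fell. These miRNAs passed the filters through plasma, so the counts and the p-value of miR-142-5p are descriptions. Their reads summed to 0% to 0.211% of a urine library, against 3.31% to 4.91% of a plasma library.

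The lists of smooth muscle, of the nervous system and of skeletal and cardiac muscle had 1 tested miRNA each, and these fell. These miRNAs reached the level of the filter mainly in plasma, so their calls and p-values are descriptions. miR-143-3p, of smooth muscle, had 9 urine reads in 5 libraries (0% to 0.488%), against 1.76% to 5.99% in plasma (median 3.43%), and its log2 ratio was −4.94 ± 0.49 (edgeR adjusted p = 3.38e-09). Without the second methylcellulose urine library the ratio was −5.58. Its level in kidney was 43029 CPM. miR-140-3p, best known from cartilage and encoded within the span of Wwp2, had 5 urine reads and a log2 ratio of −4.49 ± 0.44. miR-128-3p, of neurons, and miR-133a-3p, of muscle, had 1 urine read each, both in the second corn oil library, with fitted ratios of −5.07 ± 0.74 and −5.17 ± 1.27 (edgeR adjusted p = 2.08e-06 and 0.00112). Without that library they had no urine read, and the fitted −12.19 and −12.23 are no bounds. Of the 7 miRNAs on the muscle list 1 had a urine read, and the 31 miRNAs of the Dlk1-Dio3 cluster, an imprinted cluster, had none in urine, while 24 of them had a read in plasma. The cluster held 0.0121% to 0.0947% of a plasma library. In the 10455 urine reads a miRNA with no read could have had a level of up to 287 CPM.

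In the red blood cell list 1 of 2 tested members fell. miR-16-5p made up 0% to 0.656% of urine reads and 0.283% to 2.26% of plasma reads, overlapping in part, with a log2 ratio of −2.01 ± 0.40 (edgeR adjusted p = 0.000135). miR-451-5p, the erythrocyte miRNA, had 14 urine reads in 3 libraries, 10 of them in the third corn oil library. Its log2 ratio was −0.55 ± 0.69 (edgeR adjusted p = 0.542), and −1.83 without that library. Of 11 tested miRNAs known to be abundant in plasma, 1 rose, 4 fell and 6 did not pass (median log2 ratio −1.34). The share that fell was near the 38.4% of all rows, so the count says nothing particular of this list. miR-22-3p was the one that rose, by 0.61 ± 0.20 (edgeR adjusted p = 0.00912). It had 5.98% to 12.9% of urine reads and 5.69% to 11.7% of plasma reads, which overlap. With RLE scaling its ratio was 0.11 (edgeR adjusted p = 0.70). In the miR-17-92 and miR-106b-25 clusters 2 of 3 tested members fell, among them miR-25-3p (−1.88 ± 0.47, edgeR adjusted p = 0.00130). This count and the 1 of 2 of the red blood cell list are too small to set against the 38.4% of all rows.
miR-148a-3p, which is rich in liver, had a log2 ratio of −1.99 ± 0.25 (edgeR adjusted p = 1.64e-07), with 0.421% to 2.68% of urine reads and 1.40% to 6.83% of plasma reads. It was the only one of 3 tested members of the liver list that fell. miR-122-5p, the defining liver miRNA, was too rare in both fluids to be tested, with 4 reads in urine and 54 in plasma. miR-101b-3p, also of that list, had a log2 ratio of −1.19 ± 0.54 (edgeR adjusted p = 0.0616). miR-378a-3p, encoded within the span of the metabolic gene Ppargc1b, rose by 1.33 ± 0.33 (edgeR adjusted p = 0.00112), with 0.480% to 1.03% in urine and 0.173% to 0.942% in plasma. Neither tested member of the miR-26 family passed (miR-26a-5p 0.02 ± 0.27 and miR-26b-5p −0.60 ± 0.51), nor did miR-29a-3p (−0.19 ± 0.50) or miR-21-5p (0.12 ± 0.27), a miRNA known to rise in injured tissue. Of the platelet and endothelium list and the list of the miR-99, miR-100 and miR-125 families no member passed the filter of the reported fit. The wider filter admitted 2 of each, for which the log2 ratios were −4.62 ± 1.14 for miR-126a-5p, with 1 urine read, 0.39 ± 0.91 for miR-221-3p, 1.81 ± 0.59 for miR-125a-5p and 1.11 ± 0.51 for miR-99b-5p.

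**Figure D3:**
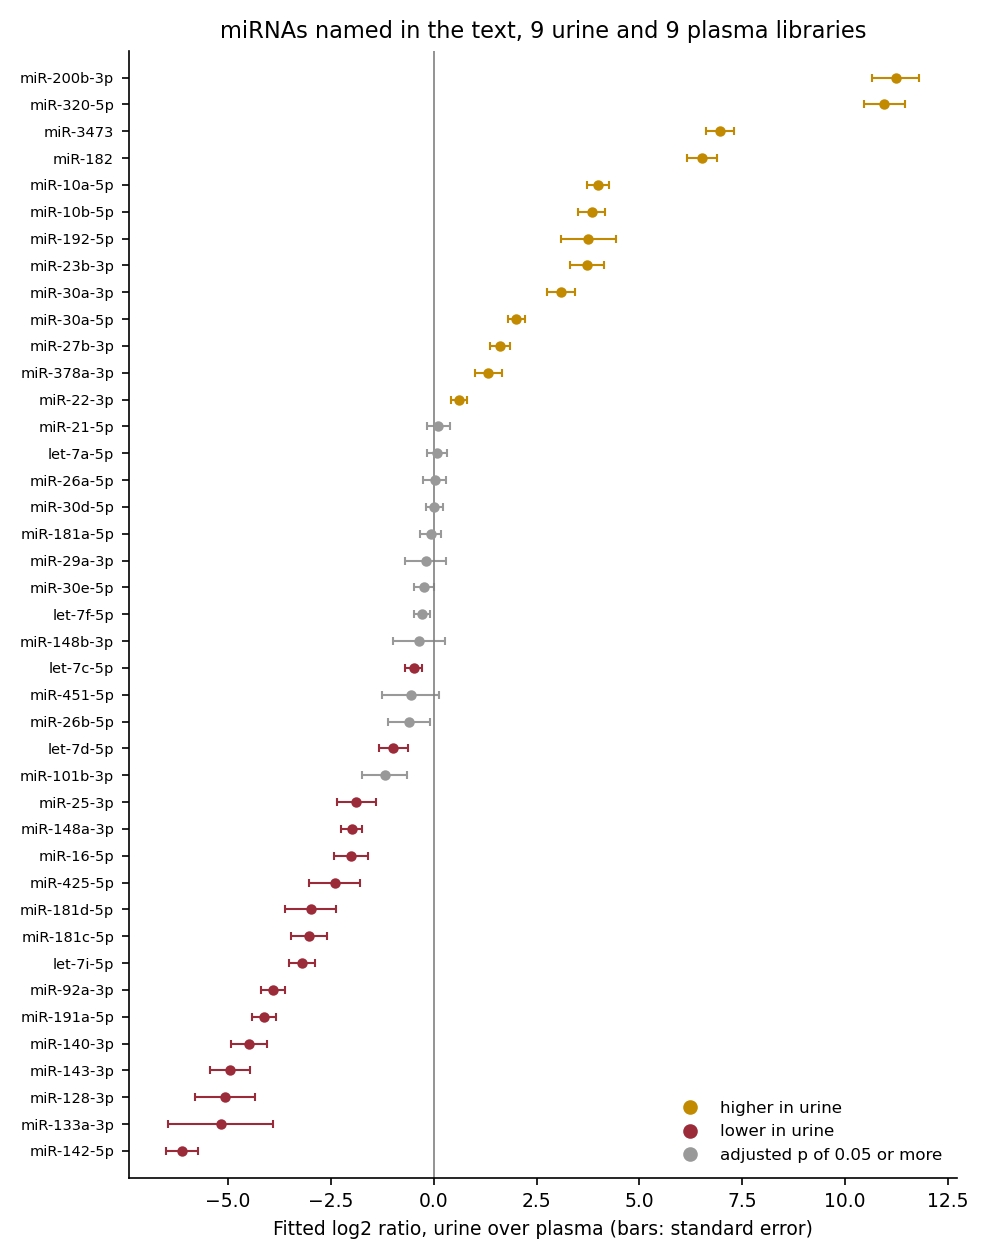
Fitted log2 ratio of urine over plasma with its standard error for 41 of the miRNAs named by rule, from 9 urine and 9 plasma libraries. Values ran from 11.23 for miR-200b-3p to −6.11 for miR-142-5p. The 2 tested miRNAs with no urine read are left out, because their fitted ratios are not measurements.

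**Figure D4:**
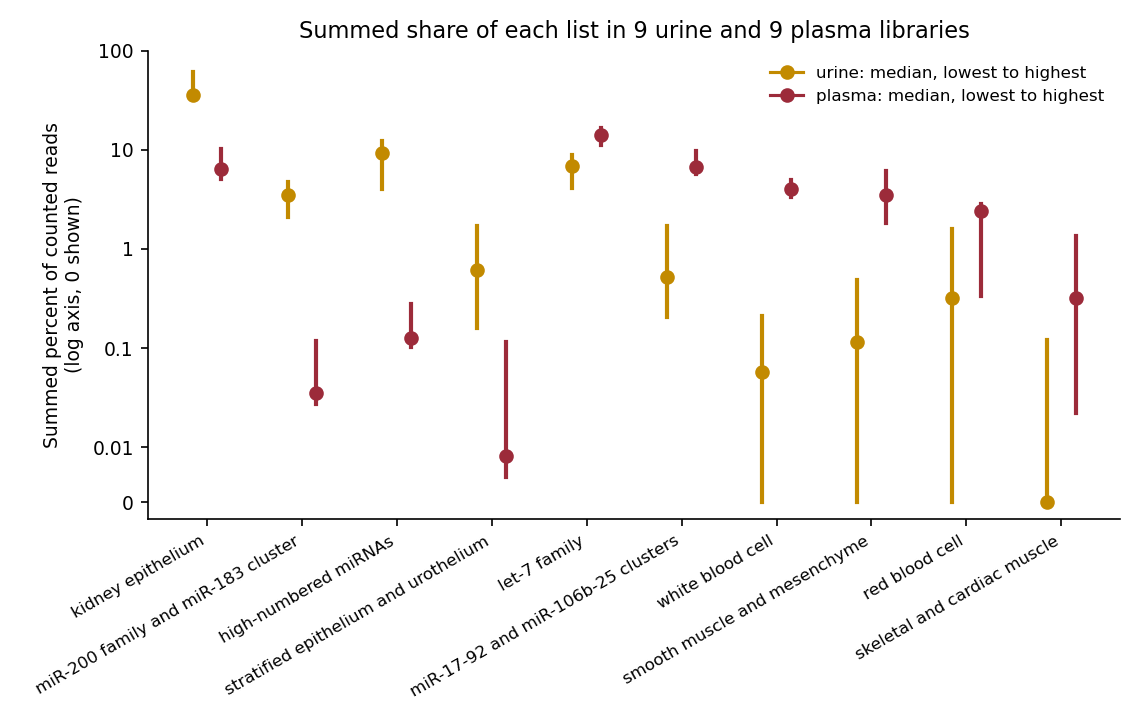
Summed percent of a library's counted reads on 10 lists of miRNAs, on a log axis that also shows 0, with urine left of plasma. Dots are medians of 9 libraries and bars run between the lowest and the highest library. The kidney epithelium list summed to 36.0% in urine and 6.39% in plasma at the median, and the white blood cell list to 0.0570% and 4.05%.

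Members of one seed family did not all move alike. Shares of a family's reads are not affected by the scaling between libraries, so they were compared, in a test added after the values were seen, for 6 families with at least 50 urine reads (21 members with a RefSeq sequence, p-values adjusted over the 21). At equal depth, 7 members held a larger and 5 a smaller share of their family in urine than in plasma. A smaller share of any member raises the shares of the rest, so these are not separate results. In a family of 2 members the calls mirror each other. let-7, regulators of cell differentiation, was the family with the most members. The sequences of its leading members, with the seed in capitals, show where they differ.
let-7f-5p: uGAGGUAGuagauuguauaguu
let-7i-5p: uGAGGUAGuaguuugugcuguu
let-7a-5p: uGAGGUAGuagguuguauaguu
let-7c-5p: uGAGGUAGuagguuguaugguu
let-7i-5p held 6.13% ± 3.63 of let-7 reads in urine, against 35.1% ± 5.40 in plasma (SD, n = 9 each). Its log2 ratio to the rest of the family differed by −2.95 (exact permutation p = 0.00025, adjusted p = 0.000656). let-7f-5p held 55.6% ± 5.99 in urine, against 36.8% ± 3.55 in plasma, and let-7a-5p 12.7% ± 4.75 against 6.09% ± 0.375. Both differed, by 1.08 and 1.26 (exact permutation adjusted p = 0.000656 each). let-7c-5p held 16.3% ± 3.69 in urine, against 12.0% ± 2.07 in plasma (difference 0.63, exact permutation adjusted p = 0.0149). let-7i-5p differs from let-7f-5p, let-7a-5p and let-7c-5p at 4 positions each, more than the 2 mismatches the alignment allowed, but from let-7g-5p at 2. let-7a-5p differs from let-7f-5p and from let-7c-5p at 1 position, and let-7c-5p from let-7f-5p at 2. Reads with mismatches may thus have been assigned to any of these, and their separate shares carry that limit. By level, 4 of the 7 tested let-7 rows of the list fell and 3 did not pass, where 38.4% of all rows fell. The median log2 ratio of the list was −0.72, beside −0.48 over all rows. let-7i-5p fell by 3.19 ± 0.32 (edgeR adjusted p = 3.38e-09), let-7d-5p by 0.98 ± 0.35 (edgeR adjusted p = 0.0196) and let-7c-5p by 0.48 ± 0.20 (edgeR adjusted p = 0.0424), while let-7f-5p (−0.29 ± 0.20) and let-7a-5p (0.09 ± 0.24) did not pass. The call of let-7c-5p was lost in 19 of 36 alternatives of the processing. Among these was DESeq2, where let-7c-5p had −0.45 and the call of let-7g-5p was lost too.

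Likewise, miR-30a-5p held 78.2% ± 8.19 of the miR-30 reads counted here in urine, against 50.8% ± 5.58 in plasma, and miR-30e-5p 14.3% ± 7.29 against 41.6% ± 2.98. The log2 ratios to the rest of the family differed by 1.79 and −2.08 (exact permutation adjusted p = 0.00117 and 0.000656). These miRNAs differ at 1 of 22 positions, so reads with mismatches may have been assigned to either. miR-30d-5p, which has no sequence here, was not part of these shares.
miR-30a-5p: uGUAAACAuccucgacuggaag
miR-30e-5p: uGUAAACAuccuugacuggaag
In the miR-181 family, miR-181a-5p held 85.8% ± 9.87 in urine, against 60.8% ± 4.35 in plasma, and miR-181c-5p 3.79% ± 3.30 against 24.6% ± 3.88. The log2 differences were 2.27 and −2.96 (exact permutation adjusted p = 0.000656 each). By level, miR-181a-5p had a log2 ratio of −0.07 ± 0.25 (edgeR adjusted p = 0.825), miR-181c-5p of −3.03 ± 0.44 (edgeR adjusted p = 2.06e-06) and miR-181d-5p, from the same cluster as miR-181c, of −2.99 ± 0.61 with 3 urine reads. miR-181c-5p and miR-181d-5p reached the level of the filter mainly in plasma, so their calls are descriptions.

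Members of the paralogous miR-23, miR-27 and miR-24 clusters differed in direction. miR-27b-3p made up 0.741% to 2.58% of urine reads, against 0.218% to 0.969% of plasma reads, and rose by 1.62 ± 0.24 (edgeR adjusted p = 3.02e-06). miR-23b-3p, encoded beside it on the minus strand of chromosome 17 within the span of Aopep, rose by 3.73 ± 0.42 (edgeR adjusted p = 3.19e-08), with 43 urine reads in 9 of 9 libraries. miR-23b-3p passed the filter through urine alone, so this p-value is a description. miR-27a-3p, encoded on chromosome 19, fell by 1.80 ± 0.58 (edgeR adjusted p = 0.00955), with 7 urine reads. It reached the level of the filter mainly in plasma, so its p-value is a description as well. Of miR-27 reads, miR-27b-3p held 96.7% ± 4.77 in urine, against 71.2% ± 5.32 in plasma (exact permutation adjusted p = 0.000656), and the pair differ at 1 of 21 positions.
miR-27b-3p: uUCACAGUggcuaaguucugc
miR-27a-3p: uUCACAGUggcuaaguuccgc

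**Figure D5:**
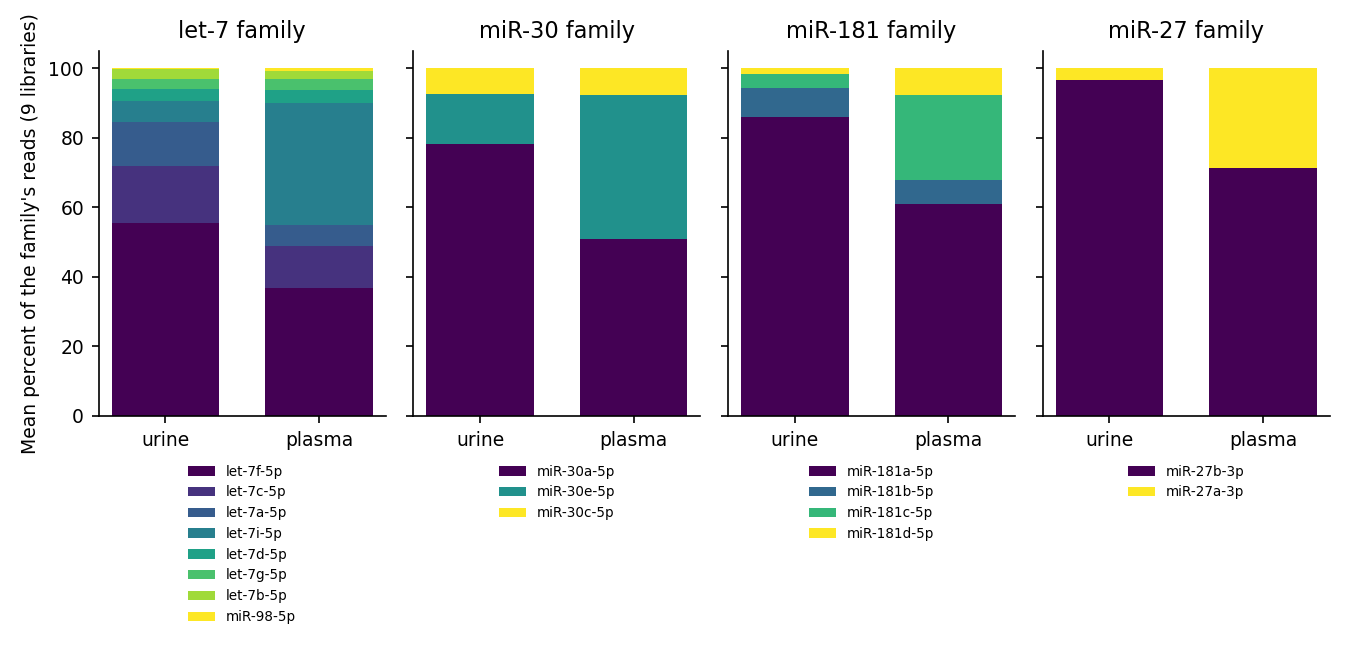
Mean percent of a seed family's reads held by each member in 9 urine libraries (left bar) and 9 plasma libraries (right bar), for members that have a RefSeq sequence and enough reads for the wider filter. let-7i-5p held 6.13% in urine and 35.1% in plasma, miR-30e-5p 14.3% and 41.6%, miR-181c-5p 3.79% and 24.6%, and miR-27a-3p 3.30% and 28.8%.

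Levels in the tissues of vehicle rats were set beside those of the fluids as a description. Among the miRNAs higher in urine, miR-10b-5p had 180016 CPM in kidneys of the saline rats and 980 CPM in livers of vehicle rats, miR-182 had 6607 and 2230 CPM, and miR-200b-3p had 1459 and 329 CPM. miR-192-5p was abundant in both tissues, with 84613 CPM in kidney and 164083 CPM in liver. Over 57 miRNAs with at least 10 urine reads, the rank correlation of the summed urine level was 0.66 with kidney, 0.57 with liver and 0.44 with plasma. These 57 were chosen on their urine reads and are not independent, and the values describe these libraries only. Of the 12 higher miRNAs with a RefSeq sequence the GC content was 43.5% to 54.5% (median 47.6%) and the length 21 to 25 bases, against 27.3% to 59.1% (median 45.5%) and 21 to 23 bases in the 22 lower ones.

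Last, it was asked whether the difference between the fluids depended on the vehicle. In the interaction test by edgeR, 0 of 73 rows passed (0.0%), and 1 had an unadjusted p under 0.05. This was miR-192-5p (edgeR adjusted p = 0.882). Its log2 ratio was 3.34 in saline, 6.0 in methylcellulose and 2.05 in corn oil rats, and the methylcellulose value includes the library with 805 reads of it. The next 4 by p were miR-148b-3p, miR-181d-5p, miR-10b-5p and miR-425-5p, with adjusted p of 0.954. With 3 libraries per fluid and vehicle, and few urine reads, this does not show that the vehicles acted alike. miR-10b-5p had log2 ratios of 4.17 in saline, 4.29 in methylcellulose and 3.06 in corn oil rats. Fitted on 3 urine and 3 plasma libraries of 1 vehicle alone, 16 miRNAs were higher and 49 lower of 161 tested in saline rats, 15 and 19 of 77 in methylcellulose rats, and 18 and 24 of 110 in corn oil rats. In corn oil rats miR-192-5p, at 1.44, did not pass (edgeR adjusted p = 0.0916), nor did miR-30a-5p, at 1.18 (edgeR adjusted p = 0.0965).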

How the data were processed

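The authors isolated total RNA from urine and plasma, prepared TruSeq Small RNA libraries and aligned them to the Rnor_5.0 genome by OSA v4, allowing 2 mismatches and leaving out reads with over 10 locations. The deposited values are raw read counts per mature miRNA of miRBase v21, not normalized. Depth was 410 to 2725 reads per urine library and 21627 to 695631 per plasma library, and intervals cover counting error only.

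The 18 vehicle columns entered an edgeR quasi-likelihood F test (version 4.0.16, R 4.3.3) with TMM factors and vehicle as block. filterByExpr used a minimum count of 10 and total of 15 by fluid, which required 821 CPM in 9 libraries, or by the 6 groups of fluid and vehicle for the wider filter. P-values were adjusted by Benjamini-Hochberg over all rows tested, at 0.05. The authors used DESeq2, here an alternative (1.42.0). Further alternatives were the scaling, filters, thinned depth, copies, blocks, single vehicles and single libraries left out. Expected miRNA numbers, shares and ratios used 2-sided exact permutation tests within vehicles (8000 arrangements, SciPy 1.17.1). For ratios of arms and family members 0.5 reads were added and plasma was thinned to the urine depth. The fit was tested on simulated data. RefSeq sequences (GRCr8) matched 56 of 63 mature miRNAs tested and 82 of 95 under the wider filter, by name.

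Named miRNAs were the 20 with most summed urine reads, the 12 largest rises and the 12 largest falls among those called whose ranges did not overlap, the 10 most abundant in plasma, 2 of each list by p, the 5 smallest interaction p and 8 without urine reads. Further copies were named once. Members, lists and rules were chosen with earlier results of these data known. Treated rats were not analysed here.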

Additional observations from a re-analysis of the deposited data

Results flagged for a closer look

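In each group of 9 libraries the highest or lowest value was set against the others, and 18 of 92 groups had a value that stood apart by more than Dixon's limit for 9 values. Chance gives such a value in about 1 in 20 groups of normally distributed values. Urine levels that rest on few reads need not follow that rate, so the 18 cannot be set against it. Levels are TMM-scaled CPM.

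Of the 18, 8 came from the second corn oil plasma library. It was the highest of 9 for miR-22-3p (127751), miR-30a-5p (28394), miR-30d-5p (19217), miR-378a-3p (10272), let-7i-5p (82360), miR-133a-3p (14035) and miR-142-3p (8652), and the lowest for miR-128-3p (1404). Among the other plasma libraries, the first corn oil library was highest for miR-451-5p (4838) and the first saline library for miR-143-3p (60421).

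In urine, the third methylcellulose library had 959589 for miR-192-5p, where the next library had 79161. The second corn oil library had the most miRNAs expected in 400 reads (73.2), and it alone had a read of miR-133a-3p and of miR-128-3p (1367 each, from 1 read). The other urine values that stood apart were let-7a-5p in the first methylcellulose library (21141), miR-92a-3p in the second saline library (10186), miR-451-5p in the third corn oil library (7067) and miR-425-5p in the second methylcellulose library (2117). The part of any library in these values was not tested beyond leaving it out.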

How the results depend on the processing

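Of 43 named miRNAs that were tested, 31 were called, and 19 of these passed the threshold in the same direction in every alternative that gave a value. The miRNAs higher and lower in urine were 15 and 36 with total counts, 14 and 40 with RLE factors, 15 and 26 with TMMwsp factors and 14 and 25 with DESeq2, and the share of calls that were higher was 34.9% in the reported fit and 25.9% with RLE. DESeq2 gave no result for miR-192-5p, so its 14 leave that miRNA out. The median of all rows was −0.48 with TMM and −0.96 with RLE, so that calls with small ratios depend on the scaling. let-7f-5p was called lower at −0.47 with total counts and miR-30e-5p at −0.73 with RLE. Without a filter 40 were higher and 121 lower (median −1.99, 24.8% of calls higher) and the interaction called 1, with the filter by 6 groups 25 and 54, and with 10 reads in urine, seen or expected, 26 and 45. With plasma thinned to the urine depth 7 were higher and 6 lower of 21 tested (53.8% of calls higher), and saline rats alone gave 49 lower. Directions reversed without a filter for miR-22-3p (−1.36), miR-26a-5p (−2.01), miR-21-5p (−1.96), miR-27b-3p (−0.35), miR-30d-5p (−1.95), miR-378a-3p (−0.64) and let-7a-5p (−1.86), and in corn oil rats alone for miR-22-3p (−0.19), and the cause was not tested. In alternatives added after seeing the data, the first copies only gave 14 higher and 24 lower, the first and second methylcellulose urine libraries taken as 1 sample 18 and 37, and leaving out the third methylcellulose urine and plasma libraries 18 and 50.

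Leaving out 1 library at a time gave 10 to 18 higher and 12 to 39 lower, and 0 to 0 interaction calls. The lowest counts came without a plasma library, when only 35 to 38 rows were tested, and the highest without a urine library, when 91 to 94 were. The difference in miRNAs expected ran from −9.36 to −6.64, and that of the top 10 share from 7.54 to 9.21. Among named miRNAs the fold itself moved by over 1.5 times, with these log2 ratios, for miR-192-5p (2.84 without the third methylcellulose urine library), miR-143-3p (−5.58) and miR-425-5p (−3.74) without the second, miR-142-5p (−6.75) and miR-101b-3p (−1.90, then called) without the third saline urine library, and miR-451-5p (−1.83) without the third corn oil urine library. It also moved for miR-128-3p (−12.19) and miR-133a-3p (−12.23), which had no urine read without the second corn oil urine library.

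With the replicate block the counts were 15 and 28. Same-numbered urine and plasma libraries had correlations of −0.0935 to 0.16 over 9 pairs. With so few urine reads, these values cannot tell whether same-numbered libraries came from the same rat. let-7c-5p was not called under the block. Precision was limited by the 410 to 2725 reads of a urine library, and 13 of the 28 lower rows had 5 or fewer urine reads.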

Other observations

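Under the wider filter miR-671, with 39 urine reads in 7 of 9 libraries, had a log2 ratio of 5.51 ± 0.62, while its mean level was 8.09 CPM in kidney and 25.7 CPM in liver. It was chosen after its values were seen and passed that filter through urine, so no test is given. Of 15 rows with a read in urine and none in plasma, miR-743b-3p had the most, 10 reads in 5 of 9 urine libraries. Conversely, 67 rows had no urine read but a read in all 9 plasma libraries, and the mean plasma level of 20 rows without urine reads was above the 287 CPM that the urine depth could show.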
